A study of Homo sapiens with 18 samples.

Results

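The RNA response to MD-224 was examined in SJSA-1 cells whose DNA had first been broken with neocarzinostatin. SJSA-1 is an established human osteosarcoma line that carries extra copies of the MDM2 gene, and neocarzinostatin (NCS) is an antibiotic that cuts DNA strands. MD-224 is a degrader of the MDM2 protein. In the treated group, NCS at 1 µg/mL was present for 72 h, was refreshed for the last 24 h, and MD-224 at 1 µM was added for those 24 h. In the control group, NCS was given in the same way and the vehicle DMSO took the place of MD-224. Each group had 3 poly(A) RNA libraries, so the comparison used 6 of the 18 libraries of the study, over all 3074 genes of the deposited table. The other groups had 3 libraries each: vehicle followed by vehicle, vehicle followed by MD-224, vehicle followed by MI-1061 (an inhibitor of MDM2, 1 µM, 24 h), and NCS followed by MI-1061. All cells came from 1 line and grew with serum, glutamine, penicillin and streptomycin. The labels do not say whether the replicates were separate cultures, so the p-values measure the spread between these libraries, which may be technical.

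The table was itself a selection. In each of its genes, the mean of the libraries with NCS and MI-1061 exceeded that of the cells given vehicle only by 1.75-fold or more, with a median of 2.997-fold. The rule behind the selection is not given in the sources used here, and every count below refers to these 3074 genes and not to the transcriptome.

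MDM2 is the ubiquitin ligase that holds the transcription factor p53 at a low level. It binds p53, covers its activation domain and marks it for the proteasome. DNA breaks activate kinases that loosen this grip, and p53 then raises genes of cell-cycle arrest, DNA repair, metabolism and cell death, together with MDM2 itself, which closes a feedback loop. A degrader acts on the MDM2 protein, so the MDM2 transcript is a readout of p53 activity and does not check the loss of the protein.

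The p53 response element is a pair of 10-base half-sites, each with the core CNNG. Promoter windows of RefSeq (GRCh38.p14) ran from 250 bases before to 50 bases after an annotated start, which can lie inside the gene. Windows were matched to 374 of the genes that rose with MD-224 after NCS. All windows of a gene were searched and its best match was kept, so a gene with more windows had more chances of a match. A match had both half-sites side by side with no spacer, both cores kept and at most 2 mismatches to the p53 consensus. It was found for 15 of these 374 genes (4.01%). The share was 0.526% of 1900 other tested genes, 10.7% of 75 genes on the p53 target lists, and 0.359% of all 27305 genes with a window. The consensus is its own reverse complement, so 1 search covers both strands. The elements below are those of 8 genes whose values are described further on. They are written 5′ to 3′ on the strand of the gene, with the CNNG core of each half-site in capitals.
MDM2, chr12:68808923-68808942, plus strand: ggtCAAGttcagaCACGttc
AEN, chr15:88621306-88621325, plus strand: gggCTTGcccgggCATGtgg
FAS, chr10:88991309-88991328, plus strand: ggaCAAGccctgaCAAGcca
DDB2, chr11:47214969-47214988, plus strand: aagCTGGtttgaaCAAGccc
HSPA4L, chr4:127783509-127783528, plus strand: aaaCATGtttccaCATGttc
GPX1, chr3:49358521-49358540, minus strand: gggCCAGaccagaCATGcct
PTCHD4, chr6:48111198-48111217, minus strand: aggCTTGcccagaCTTGccc
SIGLEC14, chr19:51647009-51647028, minus strand: ttaCAAGtctggaCAAGccc
The PTCHD4 element had 0 mismatches, that of DDB2 had 1 and the others had 2. The FAS element also lies in the window of ACTA2, which is read from the opposite strand, and both genes rose, ACTA2 by 0.96 on the log2 scale (adjusted p 0.0136, or 0.107 without MD-224 replicate 1 and 0.0731 without vehicle replicate 2 or 3). The 250 bases before the start used for PTCHD4 (chr6:48111198-48111447, minus strand) are shown as an example of the context. The element is in capitals at the end of the window, next to that start.
PTCHD4 upstream window: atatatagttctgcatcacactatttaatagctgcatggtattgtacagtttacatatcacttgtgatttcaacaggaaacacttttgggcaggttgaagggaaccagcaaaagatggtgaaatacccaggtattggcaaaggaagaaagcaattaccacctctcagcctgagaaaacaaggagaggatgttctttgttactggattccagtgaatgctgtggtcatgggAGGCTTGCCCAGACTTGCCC
A match in such a window is a description of its letters, not a measured binding site.

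MD-224 raised 465 of 3073 tested genes after NCS (15.1%) and lowered 0 (0.0%), by limma with Benjamini-Hochberg adjustment at an adjusted p under 0.05. Every listed gene had a higher mean with NCS and MI-1061 than with vehicle only. The balance of rises and falls, here and within the gene lists below, cannot be told apart from that selection. At an unadjusted p under 0.05 there were 892 higher and 3 lower genes. The smallest adjusted p among genes with a lower mean was 0.0743, for ITIH3, which read 24, 15 and 19 normalized counts with vehicle and 6, 8 and 8 with MD-224. The 465 genes had a median log2 difference of 0.82 (1.766-fold), 171 of them rose at least 2-fold and 29 at least 4-fold. In 462 of them the 3 libraries with MD-224 lay above all 3 with vehicle, a separation that 40.8% of all tested genes showed. With the replicate number as a block, limma called 755 genes higher and 0 lower. DESeq2 and edgeR on recovered reads, run only on the 4 of 6 libraries whose smallest value was 1 read, called 2 and 0 genes lower.

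The level of the whole list moved as well. Over all 3073 genes the median log2 difference was 0.30 (1.233-fold), and 2660 genes had a positive and 413 a negative difference. Scaling the libraries to each other by TMM on the listed genes, which takes most of them as unchanged, moved that median to -0.02, and 116 genes then stayed higher, all among the 465, while 6 were called lower (AK4, GRINA, HIST1H2BK, PERP, PRCP and RFTN1, named here after their values were seen). The listed genes summed to between 6695344 and 6919284 normalized counts in the vehicle libraries and between 9132301 and 10630547 in the MD-224 libraries. Between libraries of 1 group, Pearson's r across genes was 0.9853 to 0.9899 with vehicle and 0.9813 to 0.9856 with MD-224. Replicate 1 of the MD-224 group was the highest of its 3 libraries in 371 of the 465 genes, and replicate 3 the lowest in 281. Without replicate 1 of the MD-224 group 186 genes were called, and without vehicle replicate 1, 2 or 3 the calls numbered 298, 287 and 283. In total 184 of the 465 genes were still called without each of the 6 libraries in turn.

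Targets of p53 moved as a group. A list of 110 p53 targets was drawn up by role, with earlier results of these data known. It had 93 tested genes, of which 68 rose (73.1%, beside 15.1% of all tested genes) and 0 fell. Their median log2 difference was 0.92 (1.897-fold), and 92 of 93 had a positive difference, beside 2660 of all 3073 tested genes. p53 targets made up 3.03% of the tested genes, 14.6% of the genes that rose and 26.1% of the 184 genes called without each single library. With TMM scaling 34 of the 93 were higher, beside 3.78% of all tested genes, and 1, PERP, was lower, at a median of 0.60. Without replicate 1 of the MD-224 group 48 rose, beside 6.05% of all tested genes. All 93 were listed, and every listed gene had a higher mean with NCS and the MDM2 inhibitor MI-1061 than with vehicle only. Their share cannot be told apart from a selection of p53 targets that respond to MDM2 inhibition.

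**Figure D1:**
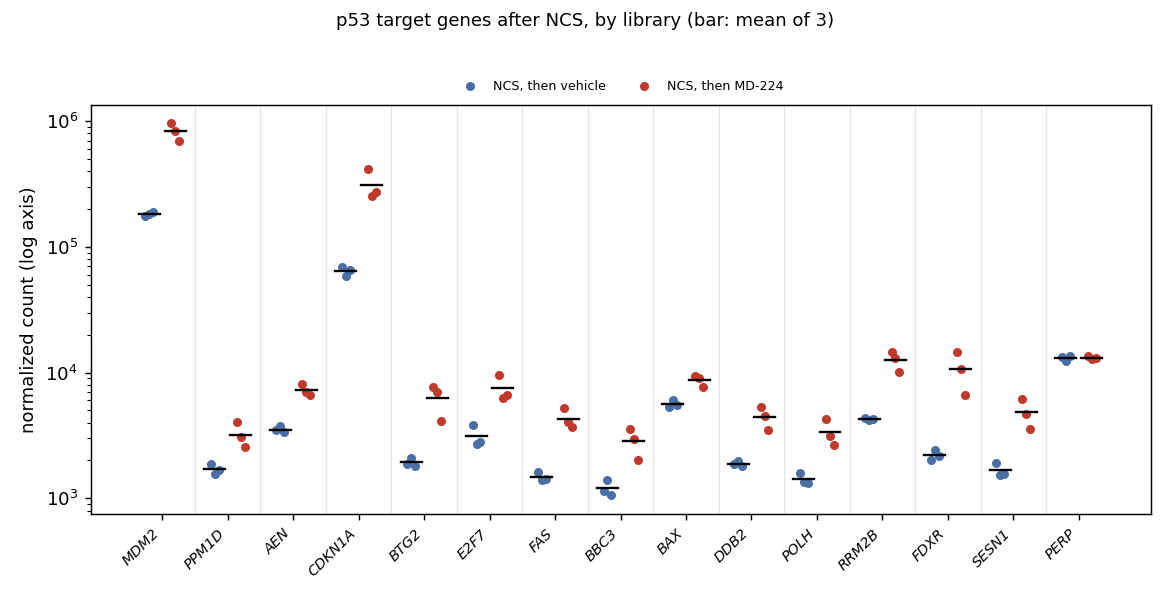
Normalized counts on a log axis of 15 p53 targets in the 3 libraries given NCS and vehicle (blue) and the 3 given NCS and MD-224 (red), with a black bar at each mean. The groups lie apart for all of them but PERP, with MDM2 rising 4.53-fold, while PERP stays between 12402 and 13552 normalized counts in both groups.

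On the list of p53 feedback regulators, which also holds the downstream targets AEN, TRIAP1 and PHLDA3, all 5 tested members rose. They did so with TMM scaling too. MDM2 (chromosome 12, 68808172 to 68850686) read 177190, 180870 and 188860 normalized counts with vehicle and 961730, 838980 and 697740 with MD-224. The groups were far apart, a 4.53-fold rise (log2 2.18, SE 0.17, adjusted p 3.51e-07). PPM1D, the phosphatase that removes activating marks from p53, went from 1880, 1548 and 1684 to 4022, 3051 and 2547 and did not overlap either. AEN, a p53-induced nuclease, went from 3475, 3728 and 3353 to 8130, 7006 and 6576, with no overlap and a log2 difference of 1.04 (SE 0.12, adjusted p 2.96e-05). TRIAP1 and PHLDA3, which restrain p53-driven death and AKT signalling, rose by 1.02 and 1.13 on the log2 scale.

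All 10 tested cell-cycle arrest targets rose, 4 of them also with TMM scaling. CDKN1A (chromosome 6, 36676463 to 36687332) encodes p21, the inhibitor of cyclin-dependent kinases. It read 69416, 58896 and 65384 normalized counts with vehicle and 412510, 251900 and 271550 with MD-224, a 4.73-fold rise (log2 2.24, SE 0.16, adjusted p 1.44e-07). The library of MD-224 replicate 1 was the highest, and the lowest MD-224 library was still far above the highest vehicle library. BTG2, an antiproliferative factor, went from 1866, 2097 and 1824 to 7622, 7019 and 4087 (log2 1.65, SE 0.21, adjusted p 6.36e-05). E2F7, a repressor of cell-cycle genes, went from 3846, 2712 and 2822 to 9627, 6307 and 6672 (log2 1.26, SE 0.17, adjusted p 9.33e-05). PLK3, a stress-responsive kinase, rose by 1.59 on the log2 scale. GADD45A, PLK2, PTP4A1, TOB1 and LIMK2 rose by 0.54 to 1.01 and were not called with TMM scaling; GADD45A and LIMK2 also lost the call without MD-224 replicate 1 (adjusted p 0.0909 and 0.121). GADD45A lost it without vehicle replicate 2 as well (0.0514), and LIMK2 without any other single library except MD-224 replicate 3 (0.0591 to 0.0922). SFN, the 14-3-3 sigma protein that holds cells before mitosis, had the widest spread: 16, 30 and 25 with vehicle and 232, 347 and 59 with MD-224. Its log2 difference was 2.82 (SE 0.85, adjusted p 0.0327), and its call was lost without MD-224 replicate 1 or 2 or any vehicle library, with adjusted p from 0.0646 to 0.143.

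Among death and survival targets the calls were divided, with 8 of 16 higher and 0 lower. FAS, a death receptor (chromosome 10, 88964050 to 89017059), went from 1612, 1395 and 1416 normalized counts to 5223, 4023 and 3694, with no overlap (log2 1.53, SE 0.14, adjusted p 1.87e-06). TNFRSF10B, the TRAIL receptor DR5, rose by 0.88 on the log2 scale, and EDA2R, a receptor of the same family, by 1.20. TP53I3, an oxidoreductase tied to oxidative stress, went from 1594, 1894 and 1666 to 9913, 8031 and 3848 (log2 1.98, SE 0.27, adjusted p 9.43e-05). BCL2L1, which encodes the survival protein BCL-XL, rose by 0.73. BBC3 (PUMA) went from 1142, 1398 and 1059 to 3555, 2957 and 2021, without overlap (log2 1.22, adjusted p 0.00642, or 0.0562 without MD-224 replicate 1). BAX, the pore-forming effector, rose by 0.62 (adjusted p 0.00124), and both BBC3 and BAX missed the threshold with TMM scaling, at adjusted p 0.0725 and 0.137. PMAIP1 (NOXA) had a log2 difference of 0.54 (adjusted p 0.106), and APAF1, the scaffold of the apoptosome, one of 0.44 (adjusted p 0.264). PERP, a desmosomal p53 target, read 13285, 12402 and 13552 with vehicle and 13489, 12747 and 12944 with MD-224, so its groups overlapped and the log2 difference was -0.0016 (95% interval -0.19 to 0.18).

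DNA repair and nucleotide supply targets rose in all 6 tested members, 5 of them also with TMM scaling. RRM2B, the p53-induced small subunit of ribonucleotide reductase, went from 4384, 4186 and 4265 normalized counts to 14599, 13014 and 10171 (log2 1.54, SE 0.14, adjusted p 1.87e-06). DDB2, which recognises ultraviolet damage, went from 1865, 1995 and 1811 to 5280, 4496 and 3506 (log2 1.21, SE 0.14, adjusted p 2.89e-05). In both genes the lowest MD-224 library exceeded the highest vehicle library by a wide margin. POLH, a translesion polymerase, XPC, a damage sensor, and FBXO22, a ubiquitin ligase subunit, rose by 1.22, 0.90 and 1.11 on the log2 scale.

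Of the metabolism, redox and autophagy targets 15 of 19 rose, 7 of them also with TMM scaling. FDXR, the mitochondrial ferredoxin reductase, had the largest rise among them, from 2027, 2418 and 2191 normalized counts to 14640, 10610 and 6663 (log2 2.20, SE 0.23, adjusted p 1.68e-05). The 3 MD-224 libraries spread over more than 2-fold, all above the vehicle libraries. SESN1, a brake on the growth kinase mTORC1, rose 2.84-fold. TP53INP1, which acts in autophagy, rose by 1.25 and TIGAR, a regulator of glycolysis, by 0.99 on the log2 scale. SPATA18, which acts in mitochondrial quality control, rose by 1.53. GPX1, a glutathione peroxidase, rose by 0.74, a call that TMM scaling ended (adjusted p 0.189). GLS2, PANK1, PRKAB1 and ALDH4A1 did not pass the test, with log2 differences of 0.66, 0.51, 0.51 and 0.36.

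Of 37 tested p53 targets in RNA, protein control and signalling 24 rose, 8 of them also with TMM scaling, and 12 were called without MD-224 replicate 1. SULF2, an extracellular sulfatase, went from 4940, 4718 and 4296 normalized counts to 24357, 17438 and 10863 (log2 1.84, SE 0.21, adjusted p 2.89e-05). HSPA4L, a heat shock family member, rose by 1.44 and CYFIP2, an actin regulator, by 1.48. ZMAT3, a regulator of splicing, rose by 0.95. GDF15, a secreted stress cytokine, read 40968, 29815 and 32252 with vehicle and 241250, 118240 and 132370 with MD-224 (log2 2.19, SE 0.44, adjusted p 0.00244). Its call was lost without replicate 1 or replicate 3 of every group (adjusted p 0.0671 and 0.0507). ATF3, TLR3, PGF and SERPINB5 were not called, with log2 differences from 0.02 to 0.55.

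**Figure D2:**
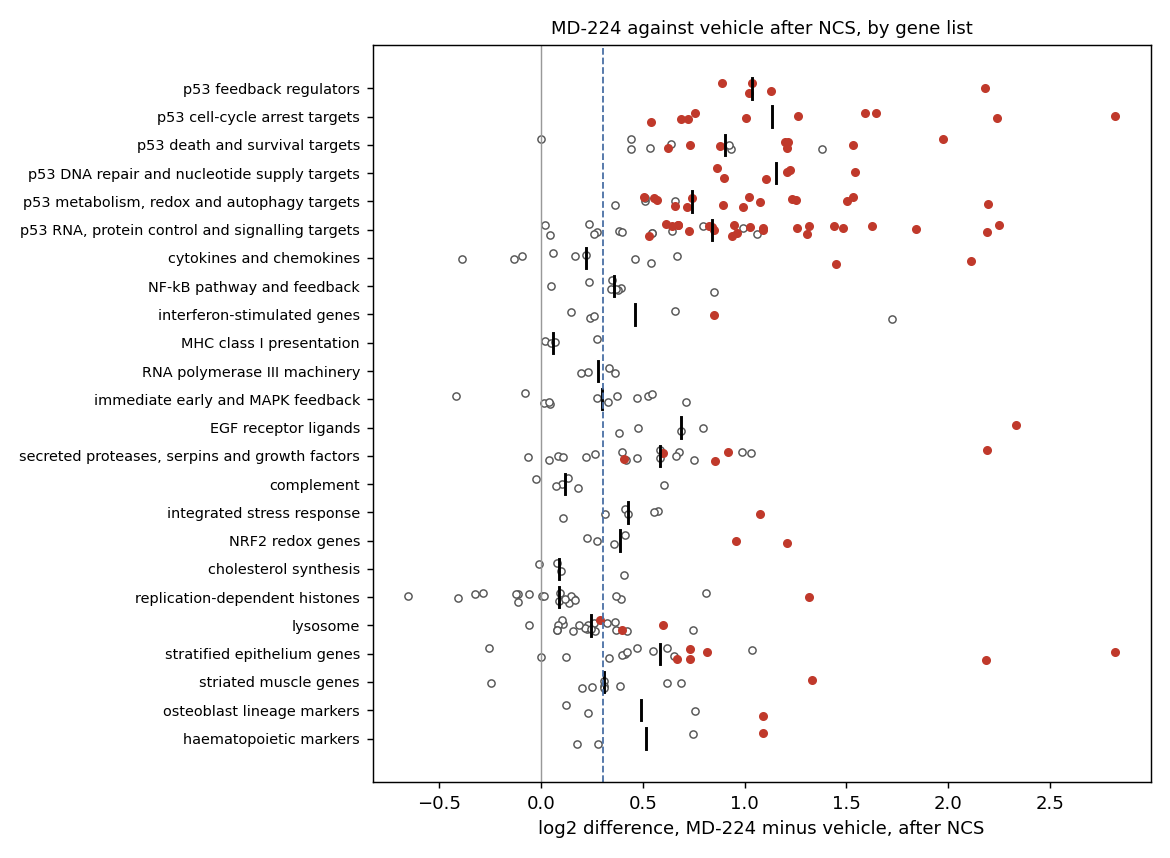
Log2 difference between MD-224 and vehicle after NCS for each tested gene of the lists with at least 4 tested genes, filled red where the adjusted p was under 0.05, with a black bar at each list's median and a dashed line at the median of all tested genes, 0.30. The p53 lists have medians from 0.74 to 1.16, and those of the inflammatory, interferon and MHC lists lie between 0.06 and 0.46.

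Over the tested genes that were on another list and were no p53 target, 20 of 172 rose (11.6%), a share near the 15.1% of all tested genes. The study concerns innate immune signalling, so cytokine and interferon genes were counted first. Of 11 tested cytokines and chemokines 2 rose (18.2%, also near that share), IL1A and IL1B, the agonists of the interleukin-1 receptor. IL1B went from 1108, 948 and 1011 normalized counts to 5597, 2623 and 5864, a 4.32-fold rise (adjusted p 0.0034). IL1A went from 467, 397 and 367 to 1404, 848 and 1176 (log2 1.45, SE 0.28, adjusted p 0.00174). Neither gene's groups overlapped, and both were called with TMM scaling too. IL1B lost its call without replicate 1 of every group (adjusted p 0.0716), and IL1A without replicate 3 of every group (0.0595). The other members did not follow: IL6 read 670, 731 and 699 with vehicle and 578, 512 and 876 with MD-224, and CXCL8 1384, 972 and 1340 against 1519, 762 and 4783. In both the groups overlapped, and CXCL8 was high only in MD-224 replicate 3. The median log2 difference of the 11 genes was 0.22, and -0.11 with TMM scaling.

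Of 6 tested interferon-stimulated genes TRIM22 alone rose (16.7%), a share near the 15.1% of all tested genes. TRIM22 rose by 0.85 on the log2 scale (adjusted p 0.00134), and it is a p53 target as well. ISG15, a ubiquitin-like modifier, read 1298, 2017 and 1638 with vehicle and 1552, 2016 and 2258 with MD-224, with overlapping groups (log2 0.24, 95% interval -0.29 to 0.77, adjusted p 0.551). MX1, an antiviral GTPase, read 1212, 2737 and 2013 against 2054, 2913 and 4398, and RSAD2, the antiviral enzyme viperin, 31, 133 and 107 against 134, 189 and 660. Within each replicate number the MD-224 value of MX1 and of RSAD2 was the higher one. With the replicate block both genes passed, at adjusted p 0.0189 and 0.0397, and without it they did not, at 0.236 and 0.165. With the block, under which 24.6% of all tested genes were called, 3 of the 6 genes were called, and with TMM scaling 0. No type I or III interferon gene of the list was in the table. None of 8 NF-kB pathway genes, 3 nucleic acid sensors, 4 MHC class I genes and 4 genes of the RNA polymerase III machinery was called. Beside 15.1% of all tested genes, lists this small cannot show a lower share. HLA-B read 39045, 38159 and 44236 with vehicle and 43756, 38747 and 43172 with MD-224, a log2 difference of 0.05 (95% interval -0.25 to 0.35). With the block, 1 NF-kB gene (TNIP1) and 1 polymerase III gene (GTF3C6) passed.

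Among secreted proteases, serpins and growth factors 5 of 21 rose (23.8%, beside 15.1% of all tested genes), among them SERPINE2, IGFBP4, GDF15 and CTSL. The count was 3 without MD-224 replicate 1 or any 1 vehicle library. SERPINE2, an inhibitor of thrombin and urokinase, went from 30333, 34375 and 32635 normalized counts to 57195, 52443 and 67135 (log2 0.86, SE 0.13, adjusted p 0.000298) and kept its call with TMM scaling. The call of IGFBP4, which binds insulin-like growth factors, was lost without any 1 of the 6 libraries (adjusted p from 0.0517 to 0.211). The proteases MMP1 and MMP3 read 229, 162 and 139 against 353, 166 and 423, and 435, 273 and 287 against 709, 300 and 1254, which overlap. Of 5 ligands of the EGF receptor, AREG (amphiregulin) rose, from 78, 93 and 93 to 830, 393 and 275 (log2 2.33, SE 0.41, adjusted p 0.000911). With the block TGFA and NRG1 passed as well, and 8 of the 21 secreted factors did, beside 24.6% of all tested genes.

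The lysosome list had 3 of 23 genes higher (a share near the 15.1% of all tested genes), the proteases CTSD, CTSL and TPP1, by 0.29, 0.60 and 0.40 on the log2 scale. TPP1 lost its call without any 1 of the 6 libraries (adjusted p from 0.0739 to 0.152), and CTSD without MD-224 replicate 1 or any 1 vehicle library (0.054 to 0.269). With the block 10 of the 23 were called, beside 24.6% of all tested genes, and with TMM scaling 0, beside 3.78%, and CTSD then had a negative difference of -0.04. Of 22 tested replication-dependent histone genes only HIST1H2BJ rose (4.55%, beside 15.1% of all tested genes). It went from 224, 209 and 183 normalized counts to 682, 513 and 381 (log2 1.32, SE 0.24, adjusted p 0.0011). The other 21 had a difference that was not called, and the list's median was 0.09, or -0.23 with TMM scaling. Histone genes have near-identical copies between which reads may be split, and most of their transcripts lack a poly(A) tail, so single values are uncertain. None of 12 immediate early genes, 6 complement genes and 4 cholesterol synthesis genes was called, beside 15.1% of all tested genes. With the block FOSL1, an AP-1 subunit, and INSIG1, a brake on sterol synthesis, passed. HMOX1, haem oxygenase, and AKR1B10, an aldo-keto reductase, were the 2 of 6 NRF2-type redox genes that rose (33.3%). Of 7 integrated stress response genes 1, SESN2, did (14.3%), a share near the 15.1% of all tested genes. HMOX1, AKR1B10 and SESN2 were not called with TMM scaling or without MD-224 replicate 1. AKR1B10 also lost its call without MD-224 replicate 2 or vehicle replicate 1 or 2 (adjusted p from 0.0544 to 0.0838), and SESN2 without MD-224 replicate 2 or any 1 vehicle library (0.0655 to 0.0871). No mitosis, DNA replication or cereblon neosubstrate gene of the lists was in the table. DDB1 and DDA1, partners of cereblon in its ubiquitin ligase, had log2 differences of 0.16 and 0.15 that were not called.

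Genes of other tissues were counted beside these. Of the tested stratified epithelium genes 6 of 18 rose (33.3%, beside 15.1% of all tested genes), among them DSC3, DSP, COL17A1, CLDN1 and SFN. The count was 0 without MD-224 replicate 1, 2 or 3 without 1 vehicle library, and 0 with TMM scaling, where PERP was called lower. COL17A1, a hemidesmosome collagen, read 80, 114 and 93 with vehicle and 573, 560 and 257 with MD-224, groups that do not overlap. The 18 genes summed to between 47980 and 52560 with vehicle and between 56900 and 67450 with MD-224. The 4 tested haematopoietic markers summed to between 3045 and 3639 with vehicle and between 4706 and 5396 with MD-224, and 1 of them, LAPTM5, was called and is also a p53 target. Its call was lost without MD-224 replicate 1 or 2 or vehicle replicate 1 or 3 (adjusted p from 0.115 to 0.26). The 2 endothelial markers summed to between 211.9 and 315.1 with vehicle and between 216.2 and 230.9 with MD-224. None of 10 simple epithelial markers was in the table. The osteoblast lineage was represented by SPP1, COL1A2, SPARC and BMP2, all detected in every library, and BMP2, a bone morphogenetic protein, rose by 1.09, a call that was lost without MD-224 replicate 1 or vehicle replicate 2 or 3 (adjusted p from 0.0686 to 0.154). Of 10 striated muscle genes MYOM3 was called (10.0%), and of 2 proteasome subunits PSMD3 (50.0%), beside 15.1% of all tested genes. The haematopoietic and osteoblast lists each had 1 of 4 called (25.0%). MYOM3 lost the call without MD-224 replicate 1 or 3 or vehicle replicate 2 or 3 (adjusted p 0.0618 to 0.13), and PSMD3 without any single library except MD-224 replicate 2 (0.0527 to 0.171). The part of other cell types in these values was not tested.

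The largest rises in the comparison included genes outside the lists. MYH16, a locus of the myosin heavy chain family, read 24, 46 and 18 with vehicle and 346, 187 and 217 with MD-224 (log2 3.11, SE 0.52, adjusted p 0.000545). TMEM40, a membrane protein gene, read 18, 21 and 23 against 311, 134 and 119 (7.98-fold, adjusted p 0.000188). DACH2, a transcription factor gene, went from 22, 17 and 18 to 257, 110 and 103, HES2, a repressor of the HES family, from 69, 107 and 101 to 861, 719 and 328, and DHRS2, a short-chain dehydrogenase, from 144, 161 and 128 to 1274, 1210 and 428. ACER2, an alkaline ceramidase, went from 80, 133 and 101 to 862, 728 and 353 (log2 2.55, SE 0.29, adjusted p 2.49e-05). These genes were taken among those whose groups lie apart, and MD-224 replicate 1 was the highest library in each of them. FETUB and IGFL2 also belonged to the 15 largest rises, at log2 2.44 and 2.30, IGFL2 without its call when MD-224 replicate 1 or vehicle replicate 3 was left out (adjusted p 0.0792 and 0.051). SIGLEC14, at 2.86, has the close relative SIGLEC5, so its reads may be split, and its call was lost without any 1 of 4 libraries. PTCHD4, whose window is printed above, went from 267, 278 and 241 to 951, 654 and 578 (log2 1.44, adjusted p 0.00124). By gene type, 436 of 2678 protein-coding genes (16.3%), 20 of 212 long noncoding RNAs (9.43%) and 3 of 88 transcribed pseudogenes (3.41%) rose.

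The same compound was also given without NCS. Without NCS 1225 genes were higher with MD-224 (39.9%) and 86 lower (2.8%), and 271 genes were called higher in both settings, 58.3% of the 465 and 22.1% of the 1225. Every listed gene had a lower mean in the cells given vehicle only than with NCS and MI-1061, so the larger count without NCS cannot be told apart from a selection of genes that are low in those cells. With TMM scaling the counts without NCS were 327 higher and 357 lower. The p53 targets had 63 of 93 higher without NCS, at a median log2 of 0.91, beside 68 and 0.92 after NCS. The median of all tested genes was 0.48 without NCS and 0.30 after it. A wider gap between p53 targets and all tested genes after NCS cannot be told apart from that selection. Gene by gene, the response after NCS minus that without it had a median of -0.09 for p53 targets and -0.14 for all tested genes.

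The interaction, the response after NCS minus that without it, was higher for 125 genes (4.07%) and lower for 221 (7.19%), or 201 and 127 with TMM scaling and 212 and 400 with the replicate block. Among the 125, 69 rose after NCS, 0 rose without it and 64 fell without it. Among the 221, all rose without NCS and 18 rose after it. Over all tested genes 15.1% rose after NCS, and 39.9% rose and 2.8% fell without it. The interaction is the difference of those responses, so such a split follows from how the genes were taken. The cells given vehicle only take part in this contrast, and every listed gene had a lower mean in them than with NCS and MI-1061. The larger number of lower interactions cannot be told apart from that selection, and with TMM scaling the higher ones were more numerous. The counts were sensitive to single libraries: they fell to 63 without MD-224 replicate 1 after NCS, to 67 and 65 higher without NCS vehicle replicate 2 and 3, to 68 without replicate 3 of MD-224 alone and to 79 without replicate 1 of vehicle only. Lower interactions numbered 135 without MD-224 replicate 3 after NCS, 115 and 107 without NCS vehicle replicate 2 and 3, and 111 without replicate 3 of MD-224 alone. Without replicate 3 of every group 3 higher and 1 lower interactions were called.

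E2F7 had the firmest interaction among the named genes. It read 7304, 7257 and 6029 normalized counts in cells given vehicle only and 2747, 2953 and 2583 with MD-224 alone, a fall of log2 -1.31 (adjusted p 1.92e-05), against the rise of 1.26 after NCS. The interaction was 2.57 (SE 0.24, adjusted p 1.62e-05) and was called under every alternative run. In the cells without NCS the MD-224 libraries lay below the vehicle libraries, and after NCS above them. In all, 17 genes rose after NCS and fell without it.

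TMEM40 read 9, 10 and 10 in cells given vehicle only and 18, 17 and 4 with MD-224 alone, and its interaction was 2.79 (adjusted p 0.0111). AREG read 70, 50 and 29 against 39, 49 and 19 without NCS, a difference of -0.48 that was not called, and its interaction was 2.81 (adjusted p 0.00731). DHRS2 showed the same order, with 90, 246 and 91 against 123, 218 and 109 and an interaction of 2.41 (adjusted p 0.013). In each of the 3 genes every library with NCS and MD-224 lay above every library of the other 3 groups. KITLG, the ligand of the receptor KIT, went from 1662, 1086 and 1288 to 4269, 2395 and 3104 after NCS, with an interaction of 1.72 (adjusted p 0.0132).

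In the other direction lay genes that NCS with vehicle already held high. TMEM132B read 11, 13 and 6 with vehicle only and 75, 99 and 187 with MD-224 alone, but 128, 151 and 189 with NCS and vehicle and 198, 168 and 179 with NCS and MD-224. Its interaction was -3.15 (SE 0.47, adjusted p 0.000743). RAB7B, an endosomal GTPase gene, read 13, 6 and 14, then 69, 65 and 67 with MD-224 alone, and 147, 147 and 103 against 158, 154 and 119 after NCS, an interaction of -2.46 (adjusted p 0.00272). Among the 93 p53 targets 6 interactions were higher (6.45%, beside 4.07% of all tested genes) and 9 lower (9.68%, beside 7.19%), shares near those of all genes. TP53INP1 had a lower one of -1.25 (adjusted p 0.00188), with rises of 1.25 after and 2.50 without NCS. CDKN1A and BTG2 also had lower ones, of -0.70 and -0.99 (adjusted p 0.0484 and 0.0412), but either call was lost with TMM scaling and without several single libraries. MDM2 had an interaction of 0.58 that was not called (adjusted p 0.128).

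**Figure D3:**
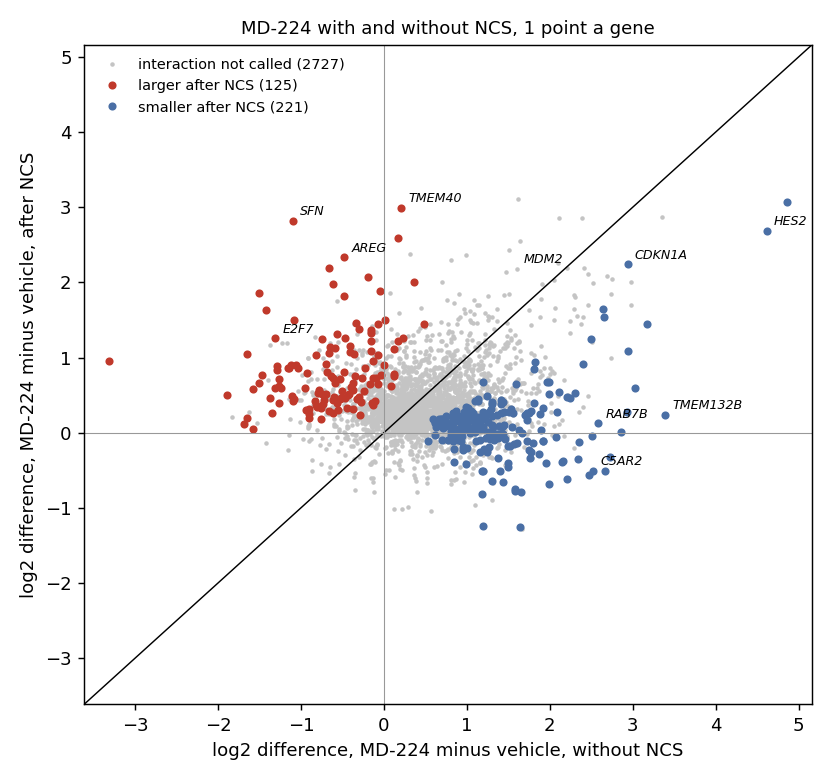
Log2 difference between MD-224 and vehicle after NCS (vertical axis) against that without NCS (horizontal axis), 1 point for each of 3073 genes, with a line of equal difference. Red points are the 125 genes with a higher interaction, which lie at positive values after NCS and mostly negative ones without it, and blue points the 221 with a lower interaction.

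**Figure D4:**
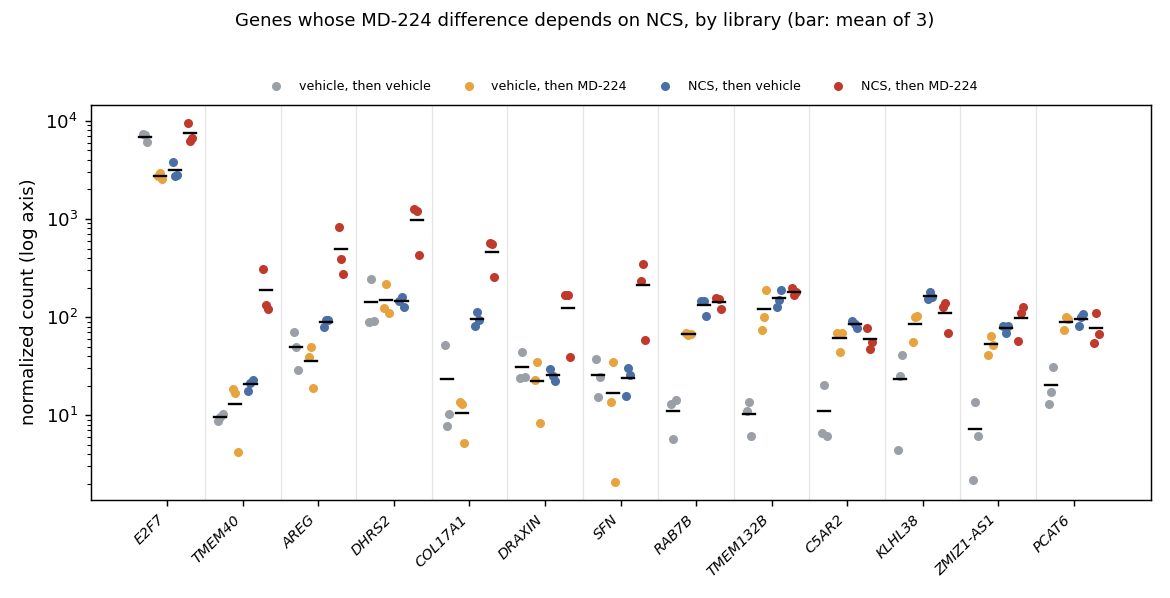
Normalized counts on a log axis of 13 genes with a significant interaction, in 3 libraries for each of 4 groups, with a black bar at each mean. E2F7 falls with MD-224 alone and rises with MD-224 after NCS, while RAB7B and TMEM132B are as high with NCS and vehicle as with NCS and MD-224.

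MD-224 was set beside MI-1061 at the same dose and time after NCS. Of the 3073 genes 23 were higher with MD-224 (0.748%) and 1680 were lower (54.7%). Every listed gene was higher with NCS and MI-1061 than with vehicle only, and a selection of genes that are high in the MI-1061 libraries cannot be told apart from a weaker response to MD-224. With TMM scaling 357 genes were higher and 550 lower. Of the 465 genes that MD-224 raised, 424 were lower than with MI-1061, 1 was higher and 40 had a difference that was not called. Of the 93 p53 targets 87 were lower and 0 higher, at a median log2 of -1.34, against a median of -0.67 for all tested genes.

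MDM2 averaged 182300 ± 5967 normalized counts with NCS and vehicle, 832800 ± 132100 with MD-224 and 2460000 ± 76700 with MI-1061 (mean ± SD, n = 3). Its level with MD-224 was thus between the others, at a log2 difference of -1.57 from MI-1061 (SE 0.17, adjusted p 9.5e-07). CDKN1A averaged 312000 ± 87610 with MD-224 and 712600 ± 53240 with MI-1061 (SD, n = 3), a log2 difference of -1.22 (adjusted p 5.29e-06). AREG read 830, 393 and 275 with MD-224 and 6142, 6873 and 4745 with MI-1061, a difference of -3.70 (adjusted p 1.5e-06). PLK2, a p53-induced kinase, and SERPINE2 were not called, with differences of -0.12 and -0.15. The 95% interval for SERPINE2 was -0.43 to 0.13 on the log2 scale, which leaves room for a difference of either sign.

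PAPPA, a protease that frees insulin-like growth factors, was the 1 gene called higher with MD-224 than with both vehicle and MI-1061 without the block. It read 3013, 2850 and 2961 with NCS and vehicle, 5530, 4819 and 5015 with NCS and MD-224, and 2566, 1930 and 2399 with NCS and MI-1061. The 3 groups did not overlap, and MD-224 was higher than vehicle by 0.80 (adjusted p 0.0015, or 0.0905 with TMM scaling) and than MI-1061 by 1.16 on the log2 scale (SE 0.15, adjusted p 6.5e-06). For HSD3B7, MYPN, ANGPTL4, SMCO3 and KY, which were higher than with MI-1061, the difference from NCS with vehicle was not called, with or without the block. RSAD2 was higher than with MI-1061 by 1.97 (adjusted p 0.0466), a call lost without MD-224 replicate 2 or 3 or MI-1061 replicate 1 or 3 (0.0602 to 0.225), and it passed over vehicle with the block but not without it, as did TSPAN31, a tetraspanin gene named here after its values were seen (adjusted p 0.0365 with the block and 0.199 without). HSD3B7, an enzyme of bile acid synthesis, read 341, 575 and 511 with vehicle, 407, 530 and 505 with MD-224 and 189, 198 and 196 with MI-1061. MYPN, a sarcomere protein gene, ANGPTL4, an inhibitor of lipoprotein lipase, SMCO3 and KY were higher than with MI-1061 by 1.62, 1.07, 1.21 and 1.02 on the log2 scale. The calls of ANGPTL4 and KY were lost without MD-224 replicate 3 (adjusted p 0.082 and 0.132), and that of KY also without MI-1061 replicate 1 or 3. The count of 23 fell to 10 without MD-224 replicate 3 and to 15 without MI-1061 replicate 1.

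**Figure D5:**
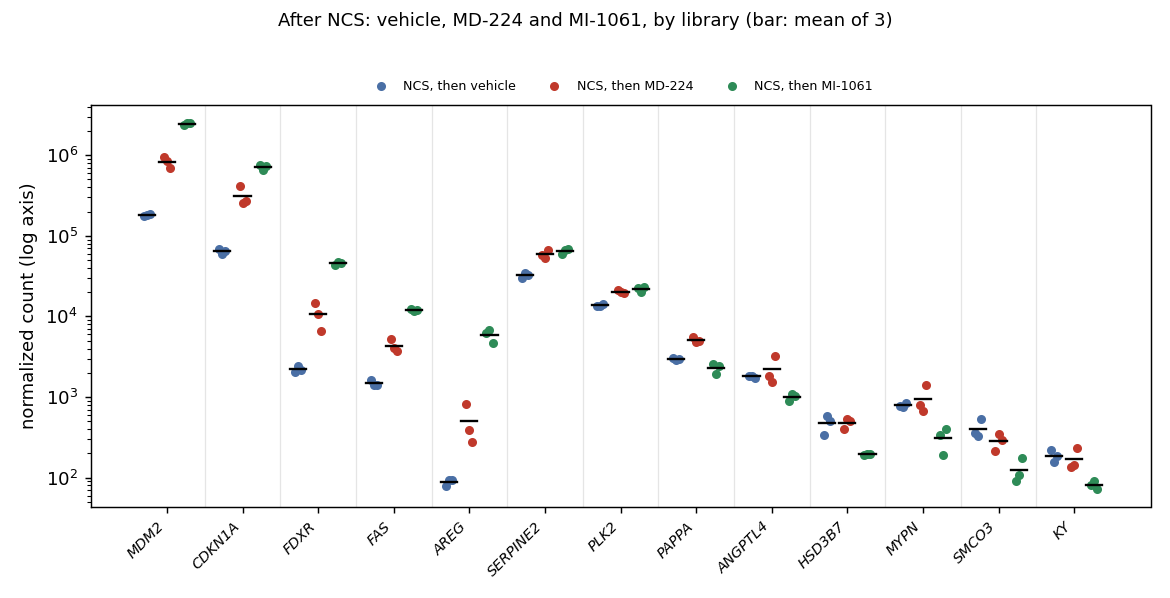
Normalized counts on a log axis of 13 genes after NCS with vehicle (blue), MD-224 (red) and MI-1061 (green), 3 libraries each with a black bar at the mean. MDM2, CDKN1A and AREG step up from vehicle to MD-224 to MI-1061, while PAPPA is highest with MD-224, between 4819 and 5530.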

How the data were processed

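Poly(A) RNA of SJSA-1 cells was sequenced in 18 libraries. Per the submitters' processing notes, the tools were HISAT2 (2.0.5.2), featureCounts (1.6.3) and DESeq2 (2.11.40.6), and the build was GRCh38. The use of strand is not given in the sources used here. The authors deposited 1 table of normalized counts (gene signal after division by a size factor per library). All values of every library were whole multiples of 1 step, within 0.01 reads, so the steps gave reads: between 6875366 and 12313969 listed reads in the 6 libraries compared, with the total depth of the libraries unknown. In 13 libraries, 4 of these 6, the smallest value was 1 read, and only these entered count tests.

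Genes that reached 10 normalized counts in 3 or more libraries (3073 of 3074) were tested on log2(value + 1) with limma 3.58.1 (trended variance, all 6 groups in 1 fit, Benjamini-Hochberg adjustment, threshold 0.05). Folds are on that scale and understate low genes. On simulated data for this comparison over 3073 genes, 25.4%, 44.8% and 86.4% of genes changed 1.5-, 2- and 4-fold were recovered, with 8 false calls. Deviations of same-numbered libraries from their group means correlated across genes (0.281, 0.416 and 0.119 for replicates 1, 2 and 3). For MD-224 replicate 3 the value with vehicle replicate 1 was close to that, at 0.0988. The replicate block takes the numbers as pairs on this basis, while the main test had no block and leaves the pairing out. Alternatives were other pseudocounts, filters and scalings, fewer groups, untrended variance, the replicate block, leaving out libraries, and, chosen after seeing the data, edgeR 4.0.16 and DESeq2 1.42.0 on recovered reads. Named genes were MDM2, CDKN1A and ISG15 throughout, the 15 largest rises (mean of at least 50, libraries apart), 6 per direction in the other comparisons, and up to 4 genes per list with the smallest p; further list members are given as examples, and some genes are not reported here. Members and lists were chosen with earlier results of these data known. Names were matched to RefSeq (GRCh38.p14) by symbol for 2795 genes and by synonym for 203; 66 were unmatched and 10 ambiguous. Coordinates and promoter sequences are from RefSeq.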

Additional observations from a re-analysis of the deposited data

Results flagged for a closer look

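For 12 of the named genes the response to MD-224 after NCS differed from that without NCS by limma's test of the interaction (log2, adjusted p). It was larger after NCS for SFN (3.92, 0.0452), COL17A1 (2.85, 0.0417), AREG (2.81, 0.00731), TMEM40 (2.79, 0.0111), DRAXIN (2.60, 0.0294) and E2F7 (2.57, 1.62e-05). It was smaller after NCS for TMEM132B (-3.15, 0.000743), C5AR2 (-3.03, 0.00355), KLHL38 (-2.83, 0.023), ZMIZ1-AS1 (-2.66, 0.013), PCAT6 (-2.53, 0.0187) and RAB7B (-2.46, 0.00272). These genes were taken for the size of that difference. E2F7 kept its call under every alternative run; SFN, COL17A1, DRAXIN, KLHL38 and PCAT6 lost theirs when 1 of several single libraries was left out, and the other 6 only without the same replicate number in all groups. The 6 genes with a smaller response had means between 7.26 (ZMIZ1-AS1) and 23.4 (KLHL38) normalized counts in cells given vehicle only, a group whose mean lay below that with NCS and MI-1061 in every listed gene.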

How the results depend on the processing

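Genes called higher with MD-224 after NCS numbered 465, and 116 with TMM scaling, 115 with median centring, 755 with the replicate block (the pairing by number), 297 by edgeR and 483 by DESeq2, both on recovered reads of 4 of the 6 libraries. Of the 465, 465 were among the block's calls, 234 among edgeR's and 328 among DESeq2's. Leaving out libraries gave 163 to 463. Genes called lower numbered 0, and 6 with TMM, 6 with median centring, 1 with untrended variance, 2 by DESeq2 and 0 in each leave-one-out. For the interaction, TMM gave 201 higher and 127 lower, median centring 136 lower, the compared groups alone 77 higher, the block 212 and 400, and leaving out libraries 3 to 150 and 1 to 262. Against MI-1061, TMM gave 357 higher and 550 lower, median centring 336 and 566, and leaving out libraries 6 to 20 and 1074 to 1610. Without NCS, TMM gave 327 and 357, median centring 362 and 325, the compared groups alone 749 and 46, edgeR 730 and 41, and leaving out libraries 591 to 1127 and 29 to 100. TMM and median centring take the listed genes as unchanged on balance; the cause of the other shifts was not tested. List medians changed sign for cytokines (-0.106 with TMM, -0.118 with median centring, and -0.0415 to 0.480 over all left-out libraries, the lowest without MD-224 replicate 3), histones (-0.235, -0.247, -0.00680 by edgeR, -0.00622 by DESeq2, and -0.0728 to 0.182 over all left-out libraries), lysosome (-0.0817, -0.094) and striated muscle (-0.0128, -0.0248), as did CTSD (-0.0375, -0.0498). Of 58 genes taken by the naming rule and called after NCS, 21 lost the call with TMM. The block added calls and ended none among the 465. In the simulation, whose setting differed from the data, 25.4% of 1.5-fold changes were called, and an uncalled gene is not shown to be unchanged.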
